A study of Rattus norvegicus with 18 samples.

Results

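Stretches of the rat genome in which CpG dinucleotides stand close together were examined in testis DNA after chronic sleep restriction (CSR) and in controls. The genome of chromosomes 1 to 20 was divided into fixed tiles of 1000 bp, and the CpG density of a tile was the number of distinct CpGs listed in at least 1 of the 12 methylation tables. CpG-dense tiles had a density of 50 or more and at least 3 CpGs with 10 or more reads in all 12 libraries (kept CpGs). Of 93364 tiles with at least 3 kept CpGs, 3106 (3.33%) were CpG-dense. A further 2311 bins of that density lacked 3 kept CpGs and were not measured, so the members were 57.3% of the 5417 dense bins. Because a CpG enters the count only where a table lists it, the density is a lower limit to the number in the genome. The methylation level of a tile in a library was the share of methylated reads among all reads of its kept CpGs, and no methylation value was used to choose the tiles.

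In mammalian DNA most CpGs carry a methyl group on the cytosine. CpG islands, the stretches where CpGs remain frequent, commonly hold gene starts and commonly lack that mark, while the islands of imprinted genes and of some germline genes are known to be methylated in particular cells. The method was RRBS, short for reduced representation bisulfite sequencing: DNA is cut at CCGG by the enzyme MspI, fragments of a chosen size are kept, and bisulfite converts unmethylated cytosines so that methylated ones can be counted.

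The 6 CSR and 6 control RRBS libraries were made from testes of Wistar rats aged 8 weeks. A separate set of 3 CSR and 3 control RNA-seq libraries came from the same tissue, strain and age. The length and method of sleep restriction were not given in the sources used here, and neither was the animal behind each library, so a p-value here reflects how far these samples scatter, and that scatter may be technical. In the submitters' codes for methylation libraries, the controls bear a letter that stands for CSR among the RNA codes. Groups follow the labels, and every direction below rests on them. A testis holds many cell types, and a change in the share of cells of a type and a change of level within cells cannot be told apart in such DNA.

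The 12 tables held 46257452 to 68940379 reads at cytosines per library. In the members 38871 CpGs were kept, with a median of 11 per tile (3 to 70), and the median member had 278 to 532 reads depending on the library. The read total of a kept CpG was an even number at 59.2 to 68.7% of these CpGs, where independent reads would give odd and even totals about equally often. Reads carried no molecular identifiers either, so the number of independent fragments behind a count is unknown. At 968 CpGs elsewhere in the genome whose levels sat near 0, 50 or 100% in every library, as at a genotype, CSR libraries 2 and 3 had the same level at 98.0%, and the other 65 pairs of libraries at 37.3 to 51.2%. Of these CpGs, 0 lay in a member. If these 2 libraries came from 1 animal, the CSR group would hold 5 independent samples, so the main comparison is also given with them summed. In the RNA libraries the spermatid genes Tnp1, Tnp2 and Oaz3 had 2148 to 7730 FPKM (FPKM corrects fragment counts for transcript length and library size). The protamine genes Prm1 and Prm2, also of spermatids, were both under 1 FPKM in control RNA libraries 1 and 2. In the other RNA libraries Prm1 had 877 to 3029 FPKM and Prm2 145 to 360 FPKM.

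Gene starts were tied to tiles through the sequence itself. RefSeq promoter windows of the GRCr8 assembly, 250 bases before to 50 bases after a start, were placed by matching the spacing of their CpGs to the positions listed in the rn6 tables. Of 12410 windows with at least 12 CpGs, 7158 matched at 1 place, 7144 of these on the chromosome that RefSeq gives, and 7136 were kept after 8 that were out of order along the chromosome had been left out. In this way 1676 windows of 1551 genes were found to start in 1347 members (43.4%). A member without such a window may still hold a start that could not be placed.

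5 of these windows are shown because later results turn on them or on their tiles. Each is printed 5′ to 3′ on the strand of its gene, in GRCr8 coordinates, with every CpG in capitals. They are Tdrd1 (chr1:265880775-265881074, plus strand) and the uncharacterised locus LOC134480864 (chr10:82991052-82991351, minus strand), the only windows at or above 10% methylation among those with at least 3 kept CpGs. Hnrnpa0 (chr17:6512879-6513178, plus strand) lies in the second densest member. Sdha (chr1:30764303-30764602, plus strand) comes from a list of housekeeping genes, and Xpo6 (chr1:190192089-190192388, minus strand) from the member with the third smallest p among those higher in CSR by 5 points or more; the choice of LOC134480864, Sdha and Xpo6 was made after their values were seen.
Tdrd1: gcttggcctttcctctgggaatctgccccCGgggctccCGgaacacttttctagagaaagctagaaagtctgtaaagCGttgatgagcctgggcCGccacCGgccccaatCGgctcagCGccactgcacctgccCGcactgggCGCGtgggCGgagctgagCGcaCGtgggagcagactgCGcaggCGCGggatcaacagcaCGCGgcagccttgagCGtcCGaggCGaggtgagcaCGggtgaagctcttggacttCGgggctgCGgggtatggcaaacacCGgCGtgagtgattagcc
LOC134480864: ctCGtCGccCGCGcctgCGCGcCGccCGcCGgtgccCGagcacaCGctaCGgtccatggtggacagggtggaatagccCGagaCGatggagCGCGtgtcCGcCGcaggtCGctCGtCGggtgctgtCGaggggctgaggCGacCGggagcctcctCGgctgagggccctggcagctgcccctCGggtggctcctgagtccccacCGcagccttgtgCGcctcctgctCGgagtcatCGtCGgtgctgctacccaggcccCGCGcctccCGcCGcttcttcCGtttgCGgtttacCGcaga
Hnrnpa0: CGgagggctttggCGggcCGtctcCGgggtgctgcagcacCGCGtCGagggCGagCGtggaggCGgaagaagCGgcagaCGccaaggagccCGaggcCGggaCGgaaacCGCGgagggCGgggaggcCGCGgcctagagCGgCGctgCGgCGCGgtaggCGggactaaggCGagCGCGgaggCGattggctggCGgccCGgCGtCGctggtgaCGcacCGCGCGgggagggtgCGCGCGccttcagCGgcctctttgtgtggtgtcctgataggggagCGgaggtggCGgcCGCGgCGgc
Sdha: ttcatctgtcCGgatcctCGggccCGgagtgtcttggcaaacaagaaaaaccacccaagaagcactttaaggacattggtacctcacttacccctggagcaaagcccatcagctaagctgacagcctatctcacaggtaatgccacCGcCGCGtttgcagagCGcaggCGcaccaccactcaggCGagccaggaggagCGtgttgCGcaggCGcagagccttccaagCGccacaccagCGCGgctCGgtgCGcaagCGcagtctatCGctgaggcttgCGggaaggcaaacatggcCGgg
Xpo6: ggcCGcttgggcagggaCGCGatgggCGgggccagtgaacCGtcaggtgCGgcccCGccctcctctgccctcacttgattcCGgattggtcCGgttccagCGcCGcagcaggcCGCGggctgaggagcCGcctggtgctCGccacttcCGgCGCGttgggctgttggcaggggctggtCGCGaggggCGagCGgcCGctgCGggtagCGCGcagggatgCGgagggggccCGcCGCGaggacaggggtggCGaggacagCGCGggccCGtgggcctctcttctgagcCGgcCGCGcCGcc
The 300 bases hold 26 CpGs at Tdrd1, 38 at LOC134480864, 47 at Hnrnpa0, 21 at Sdha and 38 at Xpo6. The Hnrnpa0 window illustrates how tightly CpGs stand in these tiles, as its member listed 141 CpGs in 1000 bp. Of the 47 CpGs in that window 0 were kept, so the window itself has no measured level. Sdha, with the fewest CpGs of the 5, came from a member of density 51, close to the lower limit.

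Nearly all CpG-dense tiles were unmethylated or close to it. Averaged over the 12 libraries, 2952 members (95%) had a level under 10%, 1258 of them under 1%. Another 106 (3.41%) lay at 10 to under 50%, 33 at 50 to under 90% and 15 at 90% or above. The median of the tile means was 1.23%. Medium-density tiles, with 20 to 49 CpGs per 1000 bp, divided into low and high tiles, 43.4% of 14223 being under 10% and 38.2% at or above 50%, with a median of 19.2%. Of 76035 CpG-poor tiles with under 20 CpGs, 83.2% were at or above 50%.

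**Figure D1:**
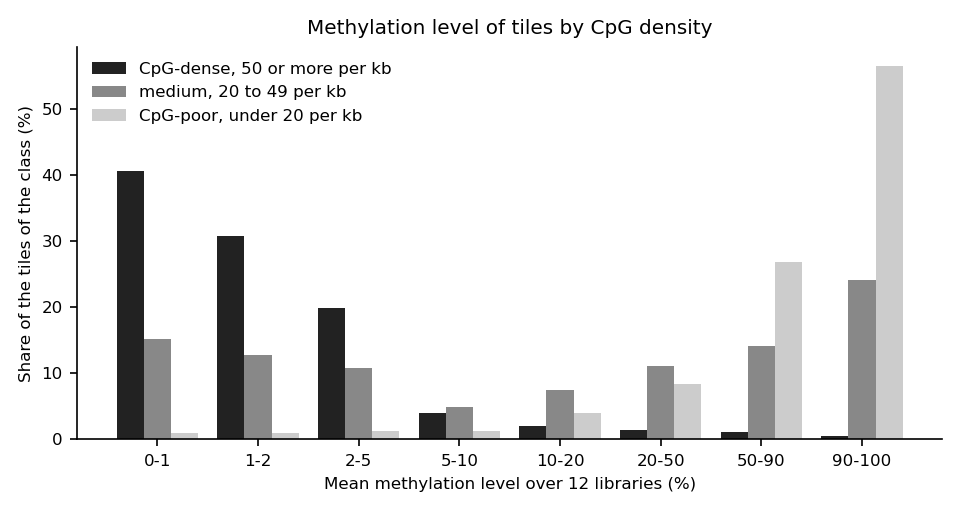
Share of the tiles of each density class (y axis, percent) by their mean methylation level over the 12 libraries (x axis, percent, unequal bins as labelled); black bars are 3106 CpG-dense, dark grey 14223 medium-density and light grey 76035 CpG-poor tiles. The dense tiles pile up under 5%, and 0.483% of them lie at 90% or above, against 56.5% of the CpG-poor tiles.

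Within every library the dense tiles were far below the medium-density ones. Their means over the 12 libraries were 3.45 ± 0.705% for dense tiles, 39.3 ± 0.657% for medium-density tiles and 78.3 ± 0.375% for CpG-poor tiles (SD, n = 12). The difference between dense and medium-density tiles was −35.8 ± 0.308 points and lay between −36.5 and −35.4 points in single libraries, lower in 12 of 12 (exact sign-flip permutation test, two-sided, p = 0.000488, the smallest that 4096 sign assignments can give). This compares tile classes in the same libraries, and no group of animals enters it.

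Inside the class, the mean level was lower at higher density. Tiles of 50 to 59 CpGs averaged 4.68%, and 99 of 1275 (7.76%) were at or above 10%. Tiles of 60 to 74 CpGs averaged 2.95%, with 4.0% at or above 10%, and tiles of 75 to 99 averaged 2.06%, with 1.6%. Of the 82 tiles with 100 or more CpGs 0 reached 10%, and their mean was 1.64%. The medians of the 4 bands were 1.33, 1.19, 1.16 and 1.31%, with no such order. There was no step at the limit of 50. The 162 tiles of exactly 49 CpGs averaged 5.86%, the 186 of 48 averaged 4.73%, the 170 of 50 averaged 4.27% and the 147 of 51 averaged 4.65%.

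The 3 densest members show this floor in single libraries. The tile chr16:21294001-21295000 (rn6, like all tile coordinates here) listed 142 CpGs, and its level had a lowest, median and highest value of 0, 0.295 and 5.08% in CSR libraries and of 0, 1.31 and 8.56% in controls. The tile chr17:6909001-6910000 at the start of Hnrnpa0, which encodes an RNA-binding protein of heterogeneous nuclear ribonucleoprotein particles, had 0, 0.641 and 1.56% in CSR libraries and 0, 0.263 and 1.65% in controls. Its 11 kept CpGs lay outside the printed promoter window. The tile chr12:13363001-13364000, with 136 CpGs and no placed start, had 1.04, 5.74 and 7.73% in CSR libraries and 0.979, 2.2 and 9.35% in controls. In all 3 the groups overlapped, and single libraries differed more than the group means.

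Sleep restriction and control did not separate by the mean level of the dense tiles. The 6 CSR libraries had means of 3.66, 3.61, 3.33, 4.83, 2.73 and 2.75%, and the 6 control libraries of 3.48, 3.49, 2.72, 3.52, 2.66 and 4.59%. The highest values, CSR library 4 and control library 6, belonged to different groups, while the lowest means were those of control libraries 5 and 3, with CSR library 5 next. The group means were 3.49 ± 0.774% in CSR libraries and 3.41 ± 0.701% in controls (SD, n = 6 each), a difference of 0.0763 points with a 95% interval of −0.867 to 1.08 from inverting the exact permutation test (two-sided, all assignments of 6 of the 12 libraries, p = 0.797). With CSR libraries 2 and 3 summed as 1 the difference was 0.0775 (exact p = 0.805). The direction turned without CSR library 4 (−0.193), control library 3 (−0.0611), control library 5 (−0.073) or both of these controls (−0.282), and with medians in place of means.

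The medians over members were 0.504 ± 0.278% in CSR libraries and 0.618 ± 0.141% in controls, which differed by less than their spread (−0.114 points, exact p = 0.385). The share of members under 10% was 92.9 ± 2.61% in CSR libraries and 93.2 ± 2.51% in controls (−0.349 points, interval −3.7 to 3.0, exact p = 0.755). This difference turned to 0.58 without CSR library 4 and to 0.778 without control libraries 3 and 5. CSR library 4 had the lowest share of its group and these controls the highest of theirs, so leaving them out could only raise the difference. The step between dense and medium-density tiles was −35.7 ± 0.264 points in CSR libraries and −35.9 ± 0.347 in controls (difference 0.179, interval −0.219 to 0.6, exact p = 0.351). With reads summed over all tiles of a class in place of tile means, that last difference was −0.592.

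No level class separated the groups. Members under 10% averaged 1.63 ± 0.741% in CSR libraries and 1.57 ± 0.654% in controls, and members at 10 to under 50% averaged 20.0 ± 2.07% in CSR libraries and 19.7 ± 2.3% in controls. Members at 50 to under 90% averaged 75.2 ± 1.06% in CSR libraries and 74.4 ± 2.79% in controls, and those at 90% or above 94.8 ± 0.625% in CSR libraries and 94.6 ± 0.588% in controls (SD, n = 6 each). The 4 exact permutation p-values were 0.494 to 0.833, and 0.833 each after Benjamini-Hochberg adjustment over the 4. Without control libraries 3 and 5 all 4 differences were negative, and in no class did that fit pass the threshold of 0.05. These libraries were the lowest controls in all 4 classes, so leaving them out could only lower the differences.

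Libraries differed in how many otherwise quiet tiles were raised. Of 2698 members whose median over the 12 libraries was under 2%, 594 reached 10% or more in at least 1 library, 494 of them in exactly 1 library and 100 in more. These tiles numbered 61, 67, 59, 200, 10 and 3 in CSR libraries 1 to 6, and 48, 48, 3, 54, 1 and 165 in control libraries 1 to 6. CSR library 4, with 7.41% of the quiet members raised, and control library 6, with 6.12%, stood above all others, and control library 5 had 0.0371%. In a raised tile of these libraries a median of 76.7% to 100% of the kept CpGs were themselves at 10% or more. The tiles were chosen by their level in the same reads, so a high share follows in part from the choice. Neighbouring CpGs are read on the same fragments and are not independent. The raised tiles had a median of 26.0 reads per CpG in CSR library 4, against 27.5 for all its quiet members, and of 18.0 in CSR library 2, against 25.3 there. They had fewer reads per CpG in every library but CSR library 6 and control library 5, which held 3 and 1 raised tiles. Between libraries, the 3 with the most reads per member had the fewest raised tiles. These were control library 5 (median of 532 reads), control library 3 (472) and CSR library 6 (452.5). CSR library 4 and control library 6 had 300 and 336 reads, but CSR library 5 had only 10 raised tiles at 279 reads. The part of depth in these counts was not tested. The same libraries stood apart outside the dense tiles, where medium-density tiles averaged 40.3% in CSR library 4 and 40.2% in control library 6, the highest of the 12, and the lowest was 38.3% in control library 5. Without CSR library 4 and control library 6 the group difference in the mean level was 0.044 points (exact p = 0.754).

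**Figure D2:**
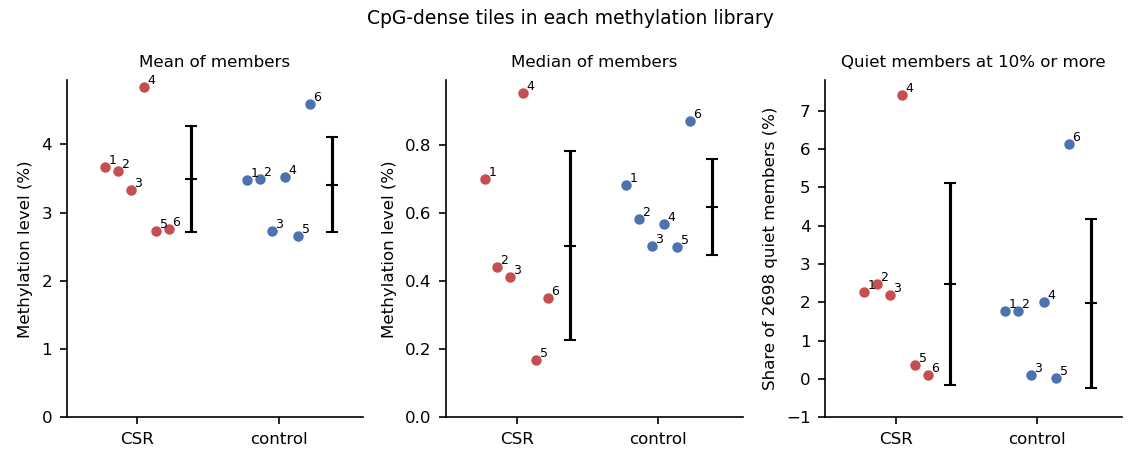
Mean level of the members (left), median level (middle) and share of 2698 quiet members at 10% or more (right) in each of 6 CSR and 6 control libraries; points are libraries with their replicate numbers, and the black bar is the group mean with its SD, which in the right panel reaches below 0. CSR library 4 and control library 6 hold the highest value of their group in all panels.

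Single tiles scattered between libraries. The dispersion of the quasi-binomial model, in which 1 is the spread of binomial, independent reads within 1 level per group, had a median of 7.02 over members and of 4.14 over all tiles, and exceeded 1 at 97.6% of members; it takes in differences between libraries and any reads that share a fragment. Of the members with a mean under 10%, 2213 of 2952 (75%) stayed under 10% in all 12 libraries.

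No dense tile was called different between CSR and control. Methylated and unmethylated reads of all tiles were fitted with a quasi-binomial model, and a call required an adjusted p under 0.05 (Benjamini-Hochberg over 93308 tested tiles) and a difference of at least 5 points. Of the 3092 members tested, 0 were called higher and 0 lower in CSR, against 0% of all tested tiles in either direction; 14 members were at 0 in all libraries and not tested. The smallest adjusted p was 0.755 among members and 0.132 among all tiles. At an unadjusted p under 0.05 there were 276 members (8.93%), 137 higher and 139 lower in CSR, against 6.18% of all tiles tested (3.4% higher and 2.77% lower). By limma on log2 ratios 0 members were called, and 122 of the 3092 tested had an unadjusted p under 0.05. The share over all tiles was not computed for that fit.

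The differences themselves were small. Of the tested members 59.8% differed by less than 1 point between the group means, 97.2% by less than 5 points, and 11 by 10 points or more. The shares over all tiles were not computed for these limits. The median of the member means was 1.23%, so a fall of 5 points was not possible at most members. The median difference was 0.008 points over members and 0.142 points over all tiles. The groups did not overlap, all CSR libraries being higher, at 0 members (0.123% of all tiles), and all CSR libraries being lower at 1 member (0.0846% of all tiles). That tile, chr20:7133001-7134000 at the start of Hmga1, which encodes a chromatin protein that binds AT-rich DNA, was named after its values were seen. Its level had a lowest, median and highest value of 0, 0.146 and 0.382% in CSR libraries and of 0.398, 0.542 and 3.34% in controls (adjusted p = 0.796), so both groups lay near 0.

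The members with the smallest p among those differing by 5 points or more are given as not passing. The highest ranked of those higher in CSR was the methylated tile chr7:719001-720000, with a lowest, median and highest level of 81.0, 87.9 and 90.1% in CSR libraries and of 70.8, 79.8 and 84.2% in controls (7.95 points, quasi-binomial adjusted p = 0.755). The tile chr1:80496001-80497000 had 4.02, 9.51 and 23.3% in CSR libraries and 0, 0 and 5.41% in controls (11.2 points, adjusted p = 0.755). Its 6 CSR libraries were all above 4%, while control library 2 alone kept the groups from separating. Its highest values, 23.3 and 21.8%, were in CSR libraries 2 and 3, which may come from 1 animal. The next was 11.2% in CSR library 4. The tile chr1:197590001-197591000 lay at the start of Xpo6, which encodes the exportin that carries actin out of the nucleus, and it rested on 2 libraries. It held 29.7% in CSR library 4 and 9.37% in CSR library 1, against 0 in the other CSR libraries and at most 0.243% in controls (6.46 points, adjusted p = 0.755). In the Xpo6 window printed above, the 16 kept CpGs ran from 16.0 to 36.0% in CSR library 4, on 24 to 26 reads each.

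On the lower side, the tile chr14:85753001-85754000 at the start of Xbp1, which encodes a transcription factor of the unfolded protein response, had a lowest, median and highest level of 0, 0 and 1.93% in CSR libraries and of 0, 3.96 and 15.1% in controls (−5.29 points, adjusted p = 0.755). The tile chr6:9080001-9081000 had 0, 0.834 and 2.03% in CSR libraries and 1.05, 7.78 and 12.9% in controls (−6.61 points, adjusted p = 0.755). The tile chr7:11775001-11776000 had 1.46, 10.1 and 15.8% in CSR libraries and 8.81, 19.1 and 35.8% in controls (−10.8 points, adjusted p = 0.806). In each of these the groups overlapped.

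**Figure D3:**
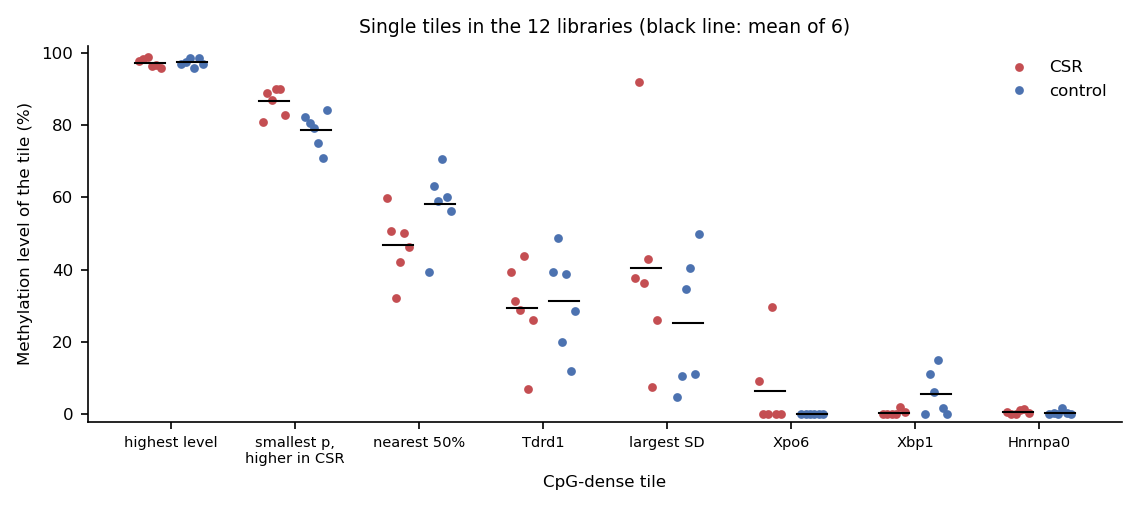
Methylation level (y axis, percent) of 8 CpG-dense tiles chosen by rule or named in the text; red points are 6 CSR libraries, blue points 6 control libraries and black lines group means. The groups overlap in all 8 tiles, and the Xpo6 tile is raised in 2 CSR libraries only.

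The low tiles sat in valleys of methylation. Counting only neighbouring tiles that were not members themselves, the tile directly before a member under 10% averaged 9.32 ± 0.496% in CSR libraries and 9.33 ± 0.506% in controls (751 tiles), and the tile directly after averaged 9.87 ± 0.721% in CSR libraries and 9.91 ± 0.518% in controls (761 tiles). At 2 tiles out the averages were 37.0 ± 0.739% before and 41.2 ± 0.37% after in CSR libraries, and 36.5 ± 0.508% before and 41.0 ± 0.726% after in controls. These rested on 337 tiles before and 290 after, whose median levels were lower, at 12.8 and 21.7%. At 5 kb away the averages were 61.1 ± 0.484% and 64.6 ± 0.274% in CSR libraries, and 60.7 ± 0.419% and 64.4 ± 0.553% in controls (SD over 6 libraries, 239 tiles before and 261 after). The tiles measured are not the same at each distance. Around the 48 members at or above 50% there was no valley. Their 19 neighbours directly before averaged 82.8 ± 0.657% in CSR libraries and 82.5 ± 1.48% in controls, close to the members themselves at 81.3 ± 0.806% in CSR libraries and 80.7 ± 2.08% in controls.

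**Figure D4:**
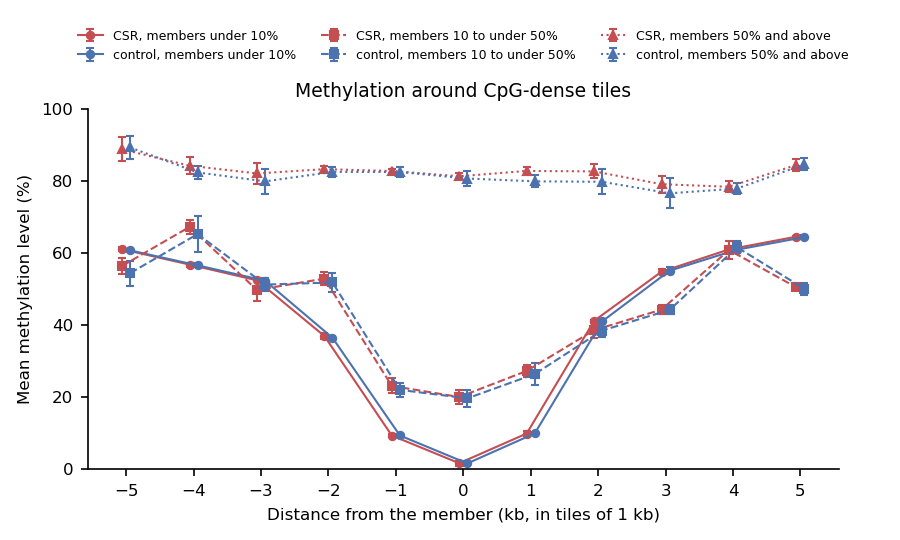
Mean methylation level (y axis, percent) of CpG-dense tiles at 0 and of their non-member neighbours up to 5 tiles of 1 kb away (x axis), by the level class of the member; red is CSR, blue control, and bars are the SD over 6 libraries. The curve of members under 10% climbs to over 60% within 5 kb. That of members at or above 50% stays between 76.6 and 89.3%, on only 2 to 19 neighbouring tiles per distance.

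Methylated dense tiles were few and unevenly placed. Of the 48 members at or above 50%, 17 lay on chromosome 7 (7.76% of its 219 members) and 10 on chromosome 2 (5.08% of 197), while the other 18 chromosomes held 21 of 2690 members (0.781%) and 5 chromosomes held none. When members within 1 Mb were linked, 24 of the 48 fell into 7 groups. The largest held 6 tiles at chr7:711001-2222000 with tile means of 66.2 to 82.6%, and the next 5 tiles at chr7:99482001-99526000 with 75.5 to 93.5%. On chromosome 2 the groups lay at chr2:123001-551000, chr2:128817001-128819000 and chr2:161553001-161566000. The repeat content of these places was not analysed here.

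The methylated tiles differed in their spread between libraries. Of the 48, 43 never fell under 50% in any library. The 15 at or above 90% had a median SD over the 12 libraries of 1.97 points, and the 33 at 50 to under 90% one of 5.37 points, up to 12.3. The highest of those with at least 10 kept CpGs was chr13:34832001-34833000, with a lowest, median and highest level of 95.9, 97.2 and 98.8% in CSR libraries and of 95.8, 97.2 and 98.5% in controls. The tile chr8:96585001-96586000 had 94.5, 97.1 and 97.7% in CSR libraries and 94.8, 95.9 and 98.1% in controls. The tile chr1:101002001-101003000, with 82 CpGs the densest at or above 90%, had 93.9, 96.1 and 96.8% in CSR libraries and 92.6, 95.3 and 95.8% in controls. Inside the tiles at or above 90% with at least 10 kept CpGs, 98.0% of single CpGs were themselves at 80% or more.

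Intermediate tiles had the largest median SD of the 4 level classes. The 106 members at 10 to under 50% had a median SD of 8.02 points over the libraries, against 5.37 for members at 50 to under 90%, 1.97 for those at 90% or above and 1.67 for those under 10%, and only 31 were at or above 10% in all 12 libraries, while 11 were at 0 in some library. Within those with at least 10 kept CpGs, 55.0% of CpGs were under 20%, 44.7% between 20 and 80% and 0.349% at 80% or more. Of the 46 such tiles, 0 had CpGs under 20% beside CpGs over 80%.

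The tile nearest 50% with at least 10 kept CpGs was chr7:26646001-26647000, with a lowest, median and highest level of 32.1, 48.3 and 59.9% in CSR libraries and of 39.3, 59.6 and 70.8% in controls (−11.2 points, adjusted p = 0.809). The tile chr4:66336001-66337000 had 23.4, 37.0 and 44.2% in CSR libraries and 24.9, 48.6 and 60.8% in controls (−11.0 points, adjusted p = 0.861). The tile chr7:12264001-12265000 had 38.6, 58.7 and 72.5% in CSR libraries and 55.0, 58.4 and 83.0% in controls (−7.57 points, adjusted p = 0.931). All 3 were lower in CSR by the mean, did not pass, and overlapped.

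The largest spread over the 12 libraries was at chr6:131837001-131838000 (SD 24.1 points, 7 kept CpGs), with a lowest, median and highest level of 7.66, 37.0 and 91.8% in CSR libraries and of 4.76, 23.0 and 50% in controls. It was followed by chr18:377001-378000 (SD 17.7, 5 kept CpGs), with 15.4, 36.0 and 67.8% in CSR libraries and 11.1, 32.4 and 56.2% in controls. The third, chr20:32353001-32354000 (SD 15.4), was at 53.6% in CSR library 3, at 11.3% in CSR library 1 and at 6.67% in control library 2, and at 0 in the other libraries. That tile had 3 kept CpGs and 30 to 93 reads per library, so its values carry the widest counting error of the 3.

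Members with a gene start were nearly all low. The 1347 members with a placed start had a median level of 1.11%, and 20 (1.48%) were at or above 10%. The 1759 members without one had a median of 1.36%, and 134 (7.62%) were at or above 10%. At or above 50% there were 3 members with a start and 45 without. These counts describe tiles, and starts could only be placed where at least 12 CpGs fell in the window, which favours dense sequence. By distance, kept CpGs 100 to 200 bases before a start averaged 1.22 ± 0.91% in CSR libraries and 1.1 ± 0.454% in controls. At 900 to 1000 bases before it they averaged 7.73 ± 0.657% in CSR libraries and 7.5 ± 0.514% in controls, and at 900 to 1000 bases after it 7.46 ± 0.447% in CSR libraries and 7.53 ± 0.596% in controls (SD, n = 6 each).

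Of 724 genes with at least 3 kept CpGs inside the promoter window, 722 (99.7%) had a window level under 10%, with a median of 0.926%. The remaining 2 were Tdrd1 and LOC134480864. Tdrd1 encodes a tudor-domain protein that, in mouse, acts with PIWI proteins of male germ cells in silencing transposons through piRNAs. Its tile, chr1:277641001-277642000, averaged 30.4% and its window 29.4% over the 12 libraries. The window had a lowest, median and highest level of 0.964, 27.2 and 41.8% in CSR libraries and of 9.33, 34.3 and 56.3% in controls, and the tile did not differ between groups beyond that spread (−1.84 points, adjusted p = 0.995).

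In the Tdrd1 sequence printed above, the 14 kept CpGs lie from −107 to −13 bases relative to the start. They were covered by nearly the same reads, 14 to 46 per CpG depending on the library. Within a library they tended to move together, but not all did, as they ran from 11.1 to 47.1% in CSR library 4. In CSR library 5 their median was 0 and their highest value 13.3%, in CSR library 4 the median was 44.4%, and in control library 2 it was 58.3%. Since the reads are shared, these CpGs do not count as 14 independent measurements. In the RNA libraries, which are other libraries, Tdrd1 had 1.91, 2.69 and 1.48 FPKM in CSR libraries, against 1.22, 2.87 and 1.87 FPKM in control libraries.

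LOC134480864, in the tile chr10:85443001-85444000 at a mean of 27.6%, had a lowest, median and highest window level of 6.9, 13.3 and 53.1% in CSR libraries and of 9.42, 21.6 and 38.6% in controls. Its 12 kept CpGs begin at base −68 relative to the start. CSR library 4 was again the highest, and the groups overlapped.

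**Figure D5:**
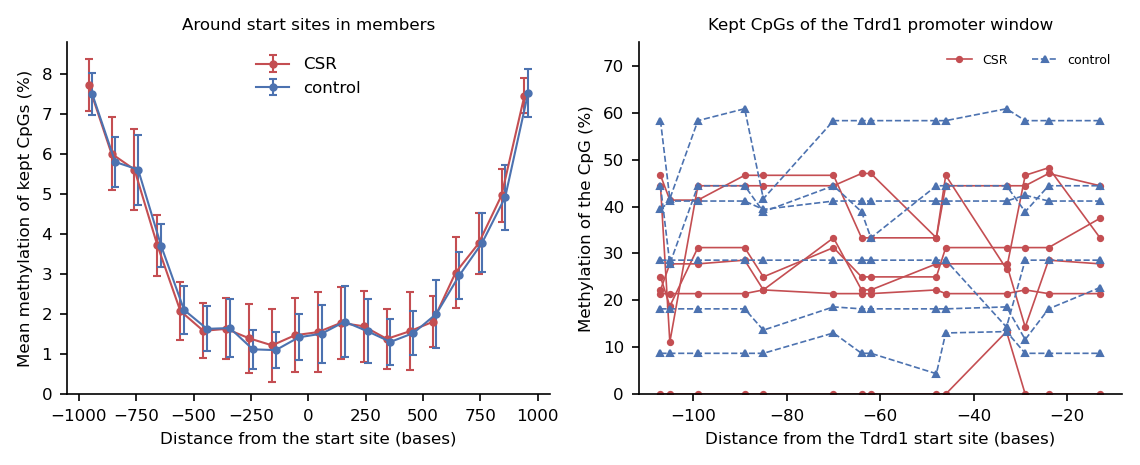
Left, mean methylation of kept CpGs (y axis, percent) by distance from the start sites placed in members (x axis, bins of 100 bases), with SD over 6 libraries; right, the 14 kept CpGs of the Tdrd1 window by distance from its start, 1 line per library. Red circles are CSR and blue controls (triangles at right). The left curves stay under 2% within 500 bases of the start. At right libraries differ in level, but several lie at like levels, and single CpGs depart from the rest of their library.

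In the other tiles at or above 20% that hold a placed start, the measured CpGs lay away from it in most but not all tiles. The tile of Spr, which encodes sepiapterin reductase of tetrahydrobiopterin synthesis, averaged 80.1%, but its 14 kept CpGs lay from −766 to −584 bases relative to the Spr start. They stood 60 to 242 bases after the start of the uncharacterised LOC134486600. The tile of Tet3, which encodes an enzyme that oxidises methylated cytosine, averaged 63.4% at 3 kept CpGs 589 to 639 bases after the start. The tile of Atp11a, a phospholipid flippase, averaged 54.6% at 3 kept CpGs from −749 to −608 bases relative to the start. Spr, Tet3 and Atp11a had 0 kept CpGs within 250 bases of their starts.

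In 5 of the tiles at lower levels the kept CpGs also lay away from the start. They lay 384 to 619 bases after the start of Ttll8, a tubulin glycylase (40.5%), from −711 to −444 bases relative to that of the phosphatase Ppp5c (29.4%) and 489 to 848 bases after that of the neuronal adhesion protein Amigo1 (21.4%). C8h15orf39 (39.4%) and Niban2 (28.0%) likewise had their kept CpGs over 500 bases before the start. In the tile of Stradb and Trak2 (29.3%), which start on opposite strands, the 3 kept CpGs inside the window averaged 2.14%. Of its 19 kept CpGs 12 lay within 250 bases of the Stradb start, however, and 9 of these, up to 188 bases after it, averaged 55.7 to 59.2% over the 12 libraries. In the tile of the DNA repair enzyme Alkbh2 (26.1%), the 3 in the window averaged 0.84%.

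Few genes of 4 lists started in a member with a placed window. Of 20 housekeeping genes 3 did. The tile of Sdha, a subunit of succinate dehydrogenase, averaged 2.61% with a highest library of 12.1% in CSR libraries and of 7.18% in controls. That of Rps18, a protein of the small ribosomal subunit, averaged 1.29%, and that of Tbp, the TATA-box binding protein, 1.19%. Of 30 germline genes with CpG-island promoters 1 did, Tdrd1. Of 30 imprinted and 30 Hox genes 0 did, so the islands of imprinted genes were not analysed here. The 4 kept CpGs in the Sdha window printed above were at 20.8 to 22.6% in CSR library 6 and at 0 in 7 of the 12 libraries.

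The windows starting in members held a median of 29 CpGs, against 7 in all 33469 windows of the same length. A placed window needed at least 12 CpGs and a tile of high density reached by MspI fragments, so higher shares of CpGs and of CpG-holding motifs follow from the choice of windows and are no finding. CCGG, the MspI site, stood in 98.7% of the 1676 windows, against 51.4% of all windows. GGGCGG or its reverse complement CCGCCC, the GC box, stood in 80.1%, against 33.1%. The cyclic AMP response element TGACGTCA stood in 3.22%, against 1.83%, and the E-box CACGTG in 10.1%, against 6.42%. Both strands were searched, CCGG, TGACGTCA and CACGTG read the same on both, and matches of different motifs may share bases. The printed Tdrd1 window holds 4 CCGG, 1 GGGCGG and 1 CACGTG, and a match is a description of letters and not of binding.

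RNA of the genes starting in dense tiles was read from the separate RNA libraries. Of the 1551 genes, 700 had a value there, with a median of 4.77 FPKM, against 4.26 FPKM over all 6682 genes of that table. The 344 genes with a window under 10% and an RNA value had a median of 4.7 FPKM and ranged from 0.155 to 867 FPKM. Xpo6 had 86.6, 86.4 and 87.6 FPKM in CSR RNA libraries, against 81.0, 89.6 and 91.6 FPKM in control RNA libraries. Xbp1 had 3.37 and 4.09 FPKM and was listed at 0 in CSR RNA libraries, against 3.16, 3.2 and 2.71 FPKM in control RNA libraries. Sdha had 15.2, 17.2 and 14.1 FPKM in CSR RNA libraries, against 14.4, 16.2 and 16.6 FPKM in control RNA libraries. The labels do not tie these libraries to the methylation libraries, so no relation between them was computed.

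Most members stood alone. They formed 2894 runs of adjoining tiles, of which 2702 were single, 173 had 2 tiles, 18 had 3 and 1 had 4. The longest, chr10:18129001-18133000, covers the start of Tlx3, a homeobox transcription factor known from neurons. Its 4 tiles averaged 0.757, 1.12, 0.921 and 1.0% over the 12 libraries. In a run of 3 at chr1:82480001-82483000 the tiles averaged 2.19, 0.292 and 9.0%.

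Another run of 3, chr1:11909001-11912000, was among the deepest places of the data. Its tiles averaged 33.6, 14.8 and 12.6% and had from 4504 to 36791 reads per library. The first tile had a lowest, median and highest level of 25.2, 38.5 and 43.6% in CSR libraries and of 10.1, 30.3 and 45.8% in controls (6.55 points, adjusted p = 0.904). The second had 9.35, 11.2 and 12.8% in CSR libraries and 2.23, 19.8 and 31.6% in controls (−7.54 points, adjusted p = 0.847). In both tiles the CSR libraries lay inside the range of the controls.

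Such deep tiles weigh on any pooled value. The 7 members with 250 or more reads per CpG, 0.225% of all, held 11.5% of the members' reads, against a median of 34.7 reads per CpG over members. With reads pooled over all members, the level was 7.66 ± 1.3% in CSR libraries and 7.14 ± 1.95% in controls. Without these 7 members it was 6.22 ± 1.24% in CSR libraries and 5.88 ± 1.57% in controls (SD, n = 6 each). The deepest of them, chr14:46655001-46656000, had 1945 reads per CpG and a lowest, median and highest level of 36.2, 38.7 and 44.4% in CSR libraries and of 6.21, 31.0 and 46.4% in controls (11.9 points, adjusted p = 0.816). Its CSR libraries lay within the control range, and the controls scattered widely in spite of the depth.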

How the data were processed

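The authors deposited, per the file headers, coverage as a read count per CpG cytosine, with its percent of C and of T reads, and for RNA the FPKM of RefSeq transcripts. Trim Galore, Bismark, SAMtools and the rn6 build, and for RNA Trimmomatic, HISAT2 and StringTie, are named per the submitters' processing notes, without versions. The lowest deposited coverage was 5 reads.

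From these files, strands were summed, a CpG was kept if every library had 10 or more reads there, and reads were summed over 1000 bp tiles with at least 3 kept CpGs. Library means were compared by exact permutation tests, two-sided. Tiles were tested by a quasi-binomial logistic model with dispersion moderated by squeezeVar of limma 3.58.1 in R 4.3.3, adjusted over all tiles and checked on simulated data; other steps used Python 3.11.15. Intervals came from inverting the exact permutation test over libraries, and the model dispersion takes in differences between libraries. As the animal behind each library was not given, that scatter may be technical. RNA values are described without a test.

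The members, the gene lists and the rule for named tiles were chosen with earlier results of these data known, and the limits for quiet tiles (median under 2%) and deep tiles (250 reads per CpG) after seeing the data. That rule names members called, the 3 of smallest p per direction with 5 or more points, the 3 of highest density, level, nearness to 50% and SD, the 3 longest runs, genes placed in them, genes of 4 lists and starts in tiles at or above 20%. Alternatives changed the read minimum, coverage limit, CpG minimum, density limit, libraries, weighting and model. Tile coordinates are rn6 and promoter coordinates GRCr8; no rn6 genome or annotation was used here.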

Additional observations from a re-analysis of the deposited data

Results flagged for a closer look

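In 90 groups of 6 libraries, 18 held a library far from the other 5 by Dixon's criterion of 0.625. The groups were taken over library measures and the named tiles, without the tiles at or above 20% that hold a placed start. Those tiles, Tdrd1 among them, were not screened. Chance flags about 1 in 20 groups of normally spread values, a rate that does not hold here: many tiles were named for their values, and where most libraries are at 0 any other value is flagged. The share of members under 10% was 88.6% in control library 6, against 93.0 to 95.5% in the other controls. The share of quiet members at 10% or more was 7.41% in CSR library 4, against 0.111 to 2.48% in the other CSR libraries, and 6.12% in control library 6, against 0.0371 to 2.0% in the other controls.

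Among named tiles with low levels, chr1:197590001-197591000 at Xpo6 was at 29.7% in CSR library 4 (others at most 9.37%) and at 0.243% in control library 5 (others at 0). The tile chr1:80496001-80497000 was at 5.41% in control library 2 (others at most 0.647%). The tile chr14:85753001-85754000 at Xbp1 was at 1.93% in CSR library 5 (others at most 0.568%). The densest tile, chr16:21294001-21295000, was at 5.08% in CSR library 5 (others at most 1.48%), and that of Hnrnpa0 at 1.65% in control library 4 (others at most 0.508%). The tile chr20:32353001-32354000 was at 53.6% in CSR library 3 (others at most 11.3%) and at 6.67% in control library 2 (others at 0).

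In the Tlx3 run, chr10:18132001-18133000 was at 1.71% in CSR library 3 (others at most 0.472%) and at 8.33% in control library 4 (others at most 0.744%). The tile chr1:82480001-82481000 was at 12.4% in control library 6 (others at most 3.1%), and that of Sdha at 7.18% in control library 4 (others at most 0.543%). In chr8:96585001-96586000 the methylated tile was at 94.5% in CSR library 4 (others 96.5 to 97.7%) and at 98.1% in control library 2 (others 94.8 to 96.0%). The intermediate tile chr4:66336001-66337000 was at 24.9% in control library 5 (others 48 to 60.8%).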

How the results depend on the processing

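The step between dense and medium-density tiles kept its direction and passed the threshold of 0.05 under all 21 alternatives run, at −39.9 to −33.9 points. No difference in level between CSR and control passed that threshold under any alternative, and its sign was not stable. With control libraries 3 and 5 left out, the CSR minus control difference was −0.282 points in the mean level of dense tiles and 0.778 points in the percent under 10%, and by level class −0.259, −0.766, −0.89 and −0.102 points from low to high. These controls had the lowest levels of their group and the highest shares under 10%, so leaving them out could only move the differences this way. With at least 10 CpGs per tile the class at 10 to under 50% gave −0.11, with medians over tiles the mean gave −0.114, and with summed reads the step between density classes gave −0.592 for CSR minus control; the causes were not tested. At a density of 75 or more, which leaves few tiles at or above 10%, the classes at 10 to under 50% and 50 to under 90% gave 4.42 and 3.54 points (exact permutation adjusted p = 0.221 each). Leaving out 1 library in turn gave −0.193 to 0.313 points for the mean level, 0.0653 to 0.241 for the step, −1.27 to 0.58 for the percent under 10%, and −0.204 to 0.287, −0.229 to 1.01, 0.0542 to 1.36 and 0.00282 to 0.398 for the 4 classes. Of 24 alternatives for calls, 23 gave 0 called dense tiles. The fit with the replicate block gave 2, at chr9:46206001-46207000 (adjusted p = 0.0112) and chr9:119321001-119322000 (adjusted p = 0.041) in the quasi-binomial model. All 6 CSR libraries are at 0 there, with control means of 8.67 and 5.57%, so the blocked model matches each of them exactly and its dispersion falls to 0.000606 and 0.000766. How many of all tested tiles the blocked fit called was not counted, so the 2 calls are no result about dense tiles. The labels give only equal numbers: deviations of same-numbered libraries correlated at −0.0492 to 0.0859 over members, and 1 of 6 pairs was best with its own number. With the replicate block the mean level gave 0.0763 (exact sign-flip permutation p = 0.781). 3 alternatives for the mean level were added after seeing the data: leaving out CSR library 4 and control library 6 gave 0.044 points, leaving out deep tiles 0.0692 and leaving out quiet tiles 0.131. With 6 libraries a group, the interval of −0.867 to 1.08 points limits what can be seen in the mean.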

Other observations

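Of the members with a placed start, 204 held starts of 2 or more genes, and 197 held starts on both strands. Dense tiles made up 2.36% of the measured tiles of chromosome 13 and 4.31% of those of chromosome 10, the lowest and highest shares of the 20 chromosomes. Among the deepest members, the tile of Fcgr2a, a receptor for immunoglobulin G, averaged 3.19 ± 1.8% in CSR libraries and 4.03 ± 2.25% in controls (SD, n = 6 each).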
